A study of Mus musculus with 9 samples.

Results

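The 10 genes described here encode enzymes and coat proteins of neutral lipid storage and of the esterification of sterols and alcohols, together with 1 glutathione transferase of the same membranes. They are Soat1, Dgat1, Dgat2, Plin2, Plin5, Awat2, Elovl3, Cidea, Scd1 and Mgst1, 10 of the 46517 gene rows measured, and were taken by symbol from the expression table of each library. They were chosen with earlier results of these data known, in particular the difference between basal hair bulb and outer root sheath. That difference is therefore described for them and not tested. Mgst1 is not an enzyme of lipid storage.

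RNA was sequenced in bulk from 4 cell populations sorted by flow cytometry from mouse back skin at postnatal day 30, when follicles were in the last stage of the growth phase, anagen VI. There were 3 libraries of hair follicle stem cells (HFSC) from the bulge and 2 of the outer root sheath (ORS), the epithelium between bulge and bulb. The hair bulb (HB) was split into its basal layer, with 2 libraries, and the suprabasal layers above it, also with 2. All samples carry the strain label Lhx2-GFP (CD1), the age label P30 and the sex label "Mixed", and no treatment is named. The extraction text instead names K14-H2BGFP mice, in which the keratin 14 promoter of basal keratinocytes drives a histone-linked GFP, so the line is not settled. The sorting markers named are CD34, Sca-1, Pcadherin and the integrins α6 and b1, together with GFP. The gates, the number of mice in a sample and the source of replicates are not stated, so p-values measure the spread between these samples, which may be technical.

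Free cholesterol and fatty acids are toxic in excess, and cells convert them to neutral esters that are stored in cytosolic droplets. Sterol O-acyltransferase, the product of Soat1, joins cholesterol to a fatty acid in the endoplasmic reticulum, while the DGAT enzymes add the last fatty acid of triglyceride. Perilipins coat the droplets and govern the access of lipases. In skin this machinery is best known from the sebaceous gland, whose cells fill with triglyceride, wax esters and cholesterol esters before they burst.

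Total expected counts were 25098237 to 29902799 in the HFSC libraries and 45438637 to 88596741 in the other 6, so low genes were measured less precisely in HFSC. Summed levels of bulge markers were 3976 to 4597 TPM (transcript level per length, scaled to the same sum in each library) in HFSC, 3895 to 5031 in ORS, 729 to 943 in basal HB and 205 to 388 in suprabasal HB. This sum, most of it Krt15 and Lhx2, overlapped between HFSC and ORS, but the bulge markers Cd34 and Sox9 did not. In ORS against HFSC 4 of 6 bulge markers were lower and 1 higher, where 23.8% and 18.1% of all genes were. The remaining 1 did not pass. Cd34 had 205 to 256 TPM in HFSC and 47.6 and 60.03 TPM in ORS, and Sox9 had 42.8 to 56.1 and 7.08 and 7.72 TPM. The mitochondrial share of expected counts was 4.36% in each suprabasal HB library, against 2.28% to 2.89% elsewhere, so every comparison with suprabasal HB also differs in this share. Libraries of different populations also differed in sex-linked genes. Ddx3y, on the Y chromosome, had 0, 0 and 1.25 expected counts in HFSC and 51.7 to 96.2 CPM (normalised count, scaled to library size by TMM) elsewhere. Xist, which coats and silences an X chromosome in female cells, stood at 1188 to 1437 CPM in HFSC, 1.11 and 1459 CPM in ORS, 298 and 359 CPM in basal HB, and 1.05 and 1.22 CPM in suprabasal HB. What moves with these sex-linked genes and what moves with the population cannot be told apart in any comparison with HFSC, nor in suprabasal against basal HB. In bulk samples, fewer cells of a type and less RNA per cell cannot be told apart either.

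RefSeq promoter windows, from 250 bases before to 50 bases after a start site (assembly GRCm38.p6), were available for 5 of the 10 genes: Soat1, Plin2, Plin5, Awat2 and Mgst1. The 250 bases upstream of Soat1 and of Plin2, genes that were highest in basal HB, are printed. Plin5 was also highest there but at the limit of detection, and its windows are not printed. The Soat1 stretch lies at chr1:156474329-156474578 and the Plin2 stretch at chr4:86670060-86670309, both on the minus strand and printed 5′ to 3′. Capitals mark matches to 7 short motifs searched on both strands.
Soat1: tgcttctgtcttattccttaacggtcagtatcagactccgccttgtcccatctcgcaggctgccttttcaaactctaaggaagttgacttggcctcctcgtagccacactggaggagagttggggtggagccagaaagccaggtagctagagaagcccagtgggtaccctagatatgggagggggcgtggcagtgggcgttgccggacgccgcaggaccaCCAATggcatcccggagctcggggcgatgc
Plin2: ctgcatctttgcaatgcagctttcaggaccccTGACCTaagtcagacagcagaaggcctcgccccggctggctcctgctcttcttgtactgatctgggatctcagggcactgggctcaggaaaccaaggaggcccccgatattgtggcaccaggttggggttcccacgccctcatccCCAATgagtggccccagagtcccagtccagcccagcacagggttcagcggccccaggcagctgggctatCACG
In Soat1 the capitals are CCAAT. In Plin2 they are AGGTCA, read on the opposite strand, then CCAAT, and last the start of CACGTG, which runs across the start site. GGGCGG was found in the 50 bases after the start of both genes and in the upstream part of the first Mgst1 window. It also occurred in both Plin5 windows and in an Awat2 window. AGGTCA occurred in both Plin5 windows, and CCAAT in the first Plin5 window and in both Awat2 windows. The other motifs searched, TCACNCCAC, TATAAA and CTTTGA, had no match in the windows of Soat1 and Plin2. Among all 32851 windows CCAAT occurred in 37.4%, GGGCGG in 35.7%, AGGTCA in 16.3%, TATAAA in 13.6%, CTTTGA in 16.0%, CACGTG in 7.15% and TCACNCCAC in 1.24%. Matches are letters in these windows, and no binding was measured.

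Soat1 (ENSMUSG00000026600, mm10 chromosome 1, 156424525 to 156474331, minus strand) had by far its highest level in basal HB. Its level was 31.9, 24.9 and 27.7 TPM in the 3 HFSC libraries, 30.4 and 20.9 TPM in ORS, 439 and 406 TPM in basal HB, and 39.6 and 35.4 TPM in suprabasal HB. Both basal HB libraries thus stood above the other 7 with no overlap. By mean TPM it was the 318th of 20491 genes in basal HB, the 4273rd in suprabasal HB, the 5377th in HFSC and the 6417th in ORS. It made up 46.9% and 46.7% of the summed TPM of the 10 genes in basal HB and 4.39% to 6.52% in the other libraries. Of its 25-base sequence words, 2.69% also occur in transcripts of other genes.

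Against ORS, the normalised count of Soat1 in basal HB was 1008 ± 7.39 CPM (SD, n = 2) and 65.7 ± 12.5 CPM in ORS (n = 2), a log2 difference of 3.94 (SE 0.17). In suprabasal HB it fell to 103 ± 12.8 CPM (n = 2), 9.78-fold below basal HB (log2 change of -3.29, SE 0.16, edgeR adjusted p = 1.6e-05). HFSC stood at 86.4 ± 5.77 CPM (n = 3), and basal HB was 11.7-fold higher (log2 change of 3.55, SE 0.14, adjusted p = 2.2e-06). These last 2 calls held under each of the 18 other settings and left-out libraries that were run, with adjusted p of at most 0.00056. Each comparison with basal HB shares its libraries with the comparison that led to the choice of the gene.

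The other 3 populations were close in Soat1. It was higher in suprabasal HB than in ORS by 0.651 on the log2 scale (SE 0.15, adjusted p = 0.011), but adjusted p was 0.0726 when ORS replicate 2 was left out and 0.067 when suprabasal HB replicate 2 was. ORS was lower than HFSC by 1.32-fold (adjusted p = 0.045), a call lost without most single libraries and on TPM (adjusted p = 0.502 with a pseudocount of 1). Suprabasal HB and HFSC had a log2 difference of 0.255 (95% interval -0.0519 to 0.561, adjusted p = 0.15). Soat2, which encodes the second sterol O-acyltransferase, had 0.26 to 0.84 TPM in all 9 libraries and passed in none of the 6 comparisons, so nearly all transcript of the pair came from Soat1. The ratio of Soat1 to Soat2 in TPM was 602 and 945 in basal HB and 24.9 to 95.7 in the other libraries.

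**Figure D1:**
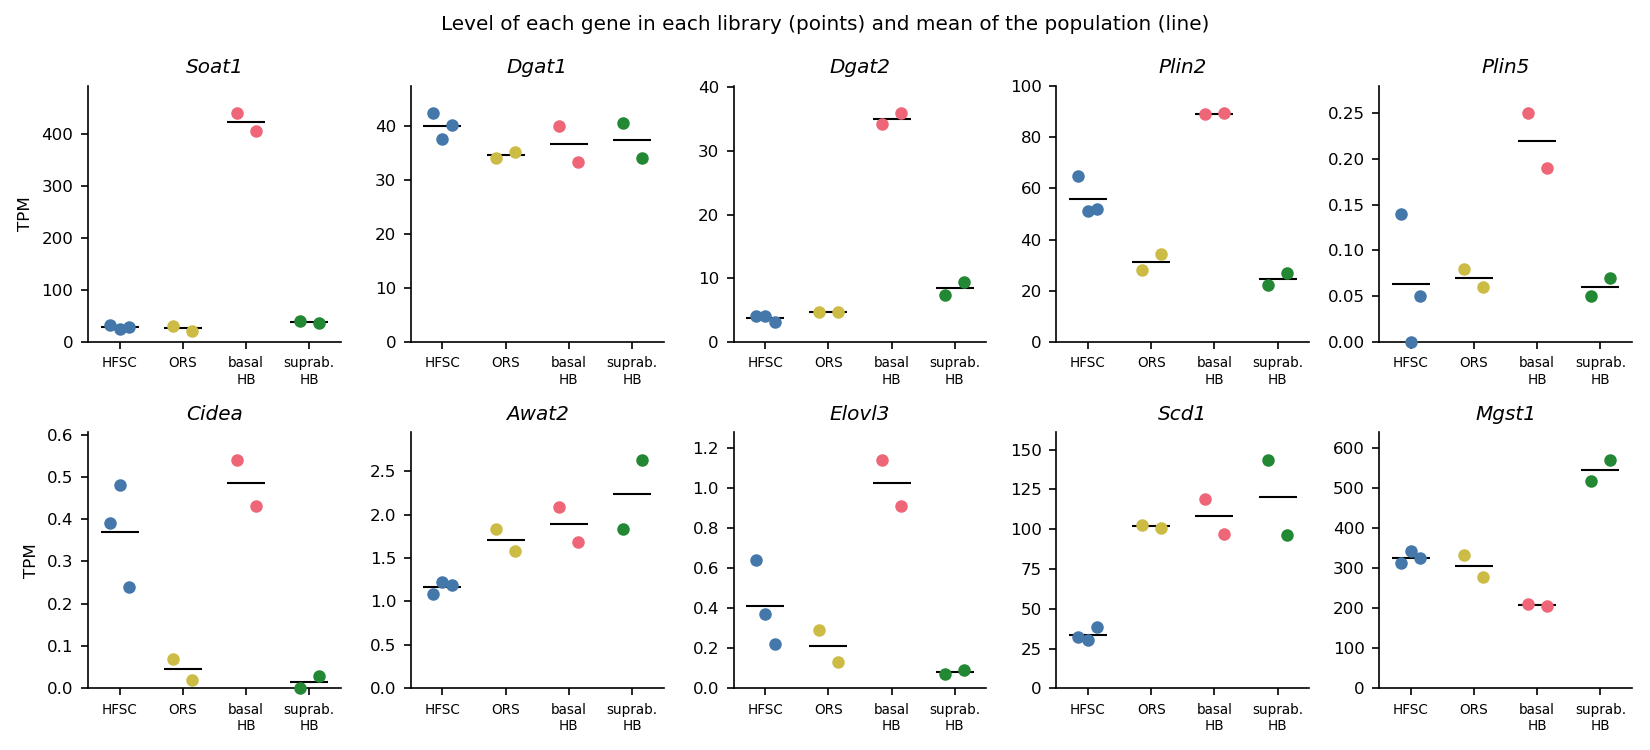
Level of each of the 10 genes, in TPM, in the 9 libraries (points) with the mean of each population (line); every panel has its own axis, which starts at 0. Soat1, at 406 and 439 TPM, and Dgat2 stand highest in basal HB, while Mgst1, at 205 and 212 TPM, is lowest there.

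The enzymes that finish triglyceride, Dgat1 and Dgat2, followed different courses. Dgat1 (ENSMUSG00000022555, chromosome 15, 76502015 to 76511953) was near level, at 37.7 to 42.4 TPM in HFSC, 34.0 and 35.2 TPM in ORS, 33.3 and 40.0 TPM in basal HB and 34.1 and 40.6 TPM in suprabasal HB. Dgat2 (ENSMUSG00000030747, chromosome 7, 99153658 to 99182719), whose product lies at the droplet surface, had 3.99, 4.01 and 3.07 TPM in HFSC, 4.68 and 4.62 TPM in ORS, 34.2 and 35.9 TPM in basal HB, and 7.42 and 9.45 TPM in suprabasal HB. Basal HB did not overlap with any other population, and suprabasal HB lay above ORS and HFSC. The ratio of Dgat2 to Dgat1 in TPM was therefore 0.854 and 1.08 in basal HB, 0.183 and 0.277 in suprabasal HB and 0.0763 to 0.137 in ORS and HFSC.

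Normalised counts of Dgat2 differed between basal HB and ORS by 2.86 on the log2 scale (SE 0.22; 41.0 ± 4.30 against 5.63 ± 0.139 CPM, SD, n = 2 each). Dgat2 fell 3.43-fold from basal to suprabasal HB (adjusted p = 0.00056). It was higher in basal HB than in HFSC by 7.24-fold (adjusted p = 1.3e-05), and higher in suprabasal HB than in ORS by 2.12-fold (adjusted p = 0.0049) and than in HFSC by 2.11-fold (adjusted p = 0.0016). All 4 calls held in each setting and left-out library run. All except the last share basal HB or ORS libraries with the comparison that led to the choice of the gene. ORS and HFSC had a Dgat2 log2 difference of -0.00754 (95% interval -0.457 to 0.442, adjusted p = 0.98), which turned to 0.275 on TPM with a pseudocount of 1 (adjusted p = 0.196). Dgat1 passed in 4 of the 5 tested comparisons with changes of at most 1.30-fold, for instance 1.27-fold higher in suprabasal than in basal HB (adjusted p = 0.02). That call was lost on TPM (adjusted p = 0.904) and without either library of either population (0.0781 to 0.125), and the other 3 Dgat1 calls were also lost on TPM (0.172 to 0.577).

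Plin2 encodes perilipin 2, the common coat protein of lipid droplets outside fat tissue (ENSMUSG00000028494, chromosome 4, 86648386 to 86670060). It had 64.7, 51.3 and 51.8 TPM in HFSC, 28.0 and 34.3 TPM in ORS, 89.2 and 89.3 TPM in basal HB, and 22.3 and 26.8 TPM in suprabasal HB. The order was basal HB, HFSC, then ORS and suprabasal HB, whose normalised counts overlapped. By normalised count, basal HB and ORS differed by 1.44 on the log2 scale (SE 0.16). Plin2 fell 3.11-fold from basal to suprabasal HB (adjusted p = 0.00021), was 1.87-fold lower in ORS than in HFSC (adjusted p = 0.0015) and 2.15-fold lower in suprabasal HB than in HFSC (adjusted p = 0.00031). It was 1.45-fold higher in basal HB than in HFSC (adjusted p = 0.012), but adjusted p was 0.0944 when basal HB replicate 2 was left out. The deposited effective length of Plin2 was shorter in all 3 HFSC libraries than in the other 6, as were those of Dgat1 and Mgst1. The part of these lengths in the TPM of the genes was not tested. Of the 25-base words of Plin2, 6.9% occur in other genes, most in Gm12551.

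Perilipin 5, which ties droplets to mitochondria, and Cidea, a protein that enlarges droplets, were at the limit of detection. Plin5 had 5, 0 and 2 expected counts in HFSC, 6 and 6 counts in ORS, 17 and 14 counts in basal HB, and 3 and 4 counts in suprabasal HB, all at or under 0.25 TPM, and passed in none of the 5 tested comparisons. Cidea had 8, 9 and 5 counts in HFSC, 3 and 1 counts in ORS, 21 and 18 counts in basal HB, and 0 and 1 counts in suprabasal HB, all at or under 0.54 TPM. Cidea was called lower in ORS than in HFSC (adjusted p = 0.0084) and in suprabasal HB than in basal HB (0.0096) and HFSC (0.0046), and the first 2 calls were lost without ORS replicate 2 (0.0765) and without basal HB replicate 1 (0.0601) or suprabasal HB replicate 1 (0.0677). With so few counts no fold is given. A floor of 3 counts equals 0.0335 to 0.133 CPM, and this covers counting error only.

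Relatives of the coat proteins did not share 1 course. Plin3, a perilipin of small droplets, had 27.5 to 48.4 TPM everywhere and did not pass between basal HB and ORS (log2 change of 0.125, adjusted p = 0.33). Plin4 had 3.67 and 4.39 TPM in basal HB and 0.03 to 0.14 TPM in the other 7 libraries, and was 29.0-fold higher there than in ORS (adjusted p = 0.00017) and 38.9-fold higher than in suprabasal HB (adjusted p = 0.00015). Cidec, which fuses droplets in fat cells, had 1.5 and 1.73 TPM in basal HB and 0 to 0.21 TPM elsewhere. The ratio of Plin2 to Plin3 in TPM was 2.75 and 2.83 in basal HB, 1.51 to 1.90 in HFSC, 0.96 and 1.25 in ORS, and 0.461 and 0.69 in suprabasal HB.

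**Figure D2:**
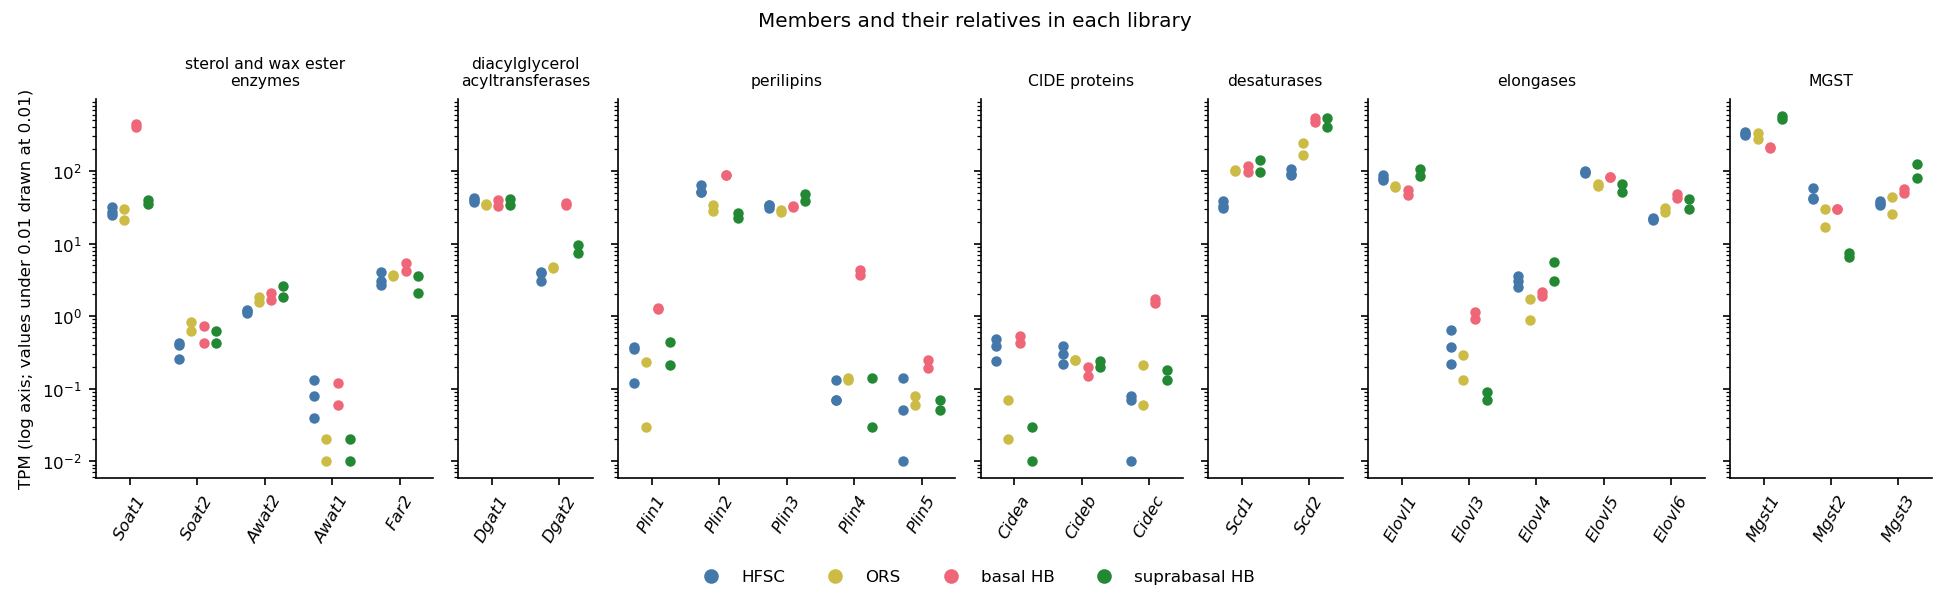
Levels in TPM, on a log axis with values under 0.01 drawn at 0.01, of the 10 genes and 15 relatives, grouped by family; each point is a library, coloured by population. Soat1, Dgat2, Plin4 and Cidec stand apart in basal HB, whereas Soat2 (0.26 to 0.84 TPM) and Awat1 (0 to 0.13 TPM) are low throughout.

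Awat2 and Elovl3, genes of wax ester synthesis in sebaceous and eyelid glands, were low in every population. Awat2, which joins a fatty acid to a fatty alcohol, had 37 to 39 counts in HFSC and 99.5 to 139 in the other 6 libraries, or 1.09, 1.22 and 1.19 TPM in HFSC, 1.83 and 1.58 TPM in ORS, 2.09 and 1.69 TPM in basal HB, and 1.84 and 2.63 TPM in suprabasal HB. It passed in suprabasal HB against HFSC alone among the 5 tested comparisons (1.68-fold higher, adjusted p = 0.047), a call lost in 10 of the 18 other settings (adjusted p = 0.27 without suprabasal HB replicate 2). Its relative Awat1 had at most 0.13 TPM, and Far2, which makes fatty alcohols, had 2.11 to 5.40 TPM and passed in no comparison.

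Elovl3, an elongase of very long saturated chains, had 0.64, 0.37 and 0.22 TPM in HFSC, 0.29 and 0.13 TPM in ORS, 1.14 and 0.91 TPM in basal HB, and 0.07 and 0.09 TPM in suprabasal HB. These are 57 and 49 expected counts in basal HB and 3 and 4 counts in suprabasal HB, and the fall between these populations passed (adjusted p = 0.0054). It was also lower in suprabasal HB than in HFSC (adjusted p = 0.012, and 0.0827 without suprabasal HB replicate 1). An exon of Elovl3 overlaps Pitx3 on the opposite strand, and the counting strand is not stated, so its reads are uncertain. The elongases Elovl1 and Elovl5 were more abundant, at 47.4 to 108 and 51.6 to 101 TPM. Elovl1 had 47.4 and 54.3 TPM in basal HB, below the other 3 populations.

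Scd1 encodes a desaturase that makes monounsaturated fatty acids such as oleate, which end up in cholesterol esters and triglycerides (ENSMUSG00000037071, chromosome 19, 44394455 to 44407879). It had 32.5, 30.6 and 38.3 TPM in HFSC, 103 and 101 TPM in ORS, 119 and 97.2 TPM in basal HB, and 144 and 96.4 TPM in suprabasal HB. HFSC was lowest with no overlap, and the other 3 populations overlapped in TPM. By normalised count Scd1 rose from HFSC by 2.38-fold in ORS (adjusted p = 0.00019), 2.43-fold in basal HB (adjusted p = 9.6e-05) and 3.22-fold in suprabasal HB (adjusted p = 1.4e-05), in every setting run. Basal HB and ORS had a log2 difference of 0.03 (SE 0.15). Suprabasal HB did not pass against basal HB (log2 change of 0.41, adjusted p = 0.072) or ORS (0.43, adjusted p = 0.057), and both passed without suprabasal HB replicate 2 (0.0406 and 0.0218), the second also by the DESeq2 Wald test (0.027). Scd1 shares 9.97% of its 25-base words with other genes, most with Scd3, so part of its reads may have been split. Scd2, its close relative, was more abundant in every library, with 89.4 to 108 TPM in HFSC, 169 and 246 TPM in ORS, 472 and 546 TPM in basal HB, and 402 and 545 TPM in suprabasal HB. Unlike Scd1, Scd2 was also called 2.35-fold higher in basal HB than in ORS (adjusted p = 0.0018). Whether the 2 genes differ in their change was not tested.

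Mgst1 encodes a microsomal glutathione transferase that also reduces lipid peroxides (ENSMUSG00000008540, chromosome 6, 138140316 to 138156755). It was the most abundant of the 10 genes outside basal HB, with 312, 343 and 325 TPM in HFSC, 334 and 278 TPM in ORS, 212 and 205 TPM in basal HB, and 518 and 571 TPM in suprabasal HB. Basal HB was lowest and suprabasal HB highest, neither with overlap, while HFSC and ORS overlapped in TPM. Between basal HB and ORS the normalised counts were 70.1 ± 4.78 and 107 ± 14.6 CPM (SD, n = 2 each), a log2 difference of -0.61 (SE 0.16). From basal to suprabasal HB it rose 3.15-fold to 221 ± 34.3 CPM (adjusted p = 0.00023). It was 1.89-fold lower in basal HB than in HFSC (adjusted p = 0.0011), and higher in suprabasal HB than in ORS by 2.07-fold (adjusted p = 0.0014) and than in HFSC by 1.66-fold (adjusted p = 0.0027). These 4 calls held in every setting run. All except that in suprabasal HB against HFSC share basal HB or ORS libraries with the comparison that chose the genes. The higher mitochondrial share of both suprabasal HB libraries moved with the rise of Mgst1 there, and its part in it was not tested. Among its relatives, Mgst3 had 50.3 and 55.8 TPM in basal HB and 79.7 and 124 TPM in suprabasal HB, whereas Mgst2 fell by 1.85 on the log2 scale (adjusted p = 0.0014).

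In the comparison that chose them, basal HB against ORS, 6 of the 10 genes were at least 2-fold higher (Soat1, Dgat2, Plin2, Plin5, Elovl3, Cidea) and none was 2-fold lower, where 14.2% and 6.8% of all tested genes were. All 10 genes passed the filter on low counts, but Plin5 did so through basal HB alone, the only population whose libraries reached the 0.197 CPM of the filter, so its place in that count was favoured by the filter. Without Plin5 the count was 5 of 9. From basal to suprabasal HB, Soat1, Dgat2, Plin2, Elovl3 and Cidea fell and Dgat1 and Mgst1 rose, 7 of 10 called, where 27.9% of all 20491 genes were called (14.8% lower and 13.1% higher). In basal HB against HFSC 6 of 10 were called, 4 higher and 2 lower, where 48.9% of all genes were (22.8% higher and 26.1% lower). In suprabasal HB against ORS 4 of 10 were called, all higher, where 29.4% of all genes were (14.3% higher and 15.1% lower). In ORS against HFSC 1 was higher and 4 lower, where 41.9% of all genes were called (18.1% higher and 23.8% lower). In suprabasal HB against HFSC 4 were higher and 3 lower, where 51.5% of all genes were called (25.2% higher and 26.3% lower). Every comparison but this last one shares basal HB or ORS libraries with the comparison that chose the genes. Calls with basal HB high or ORS low were thus favoured by the choice, so these counts are not independent of it.

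**Figure D3:**
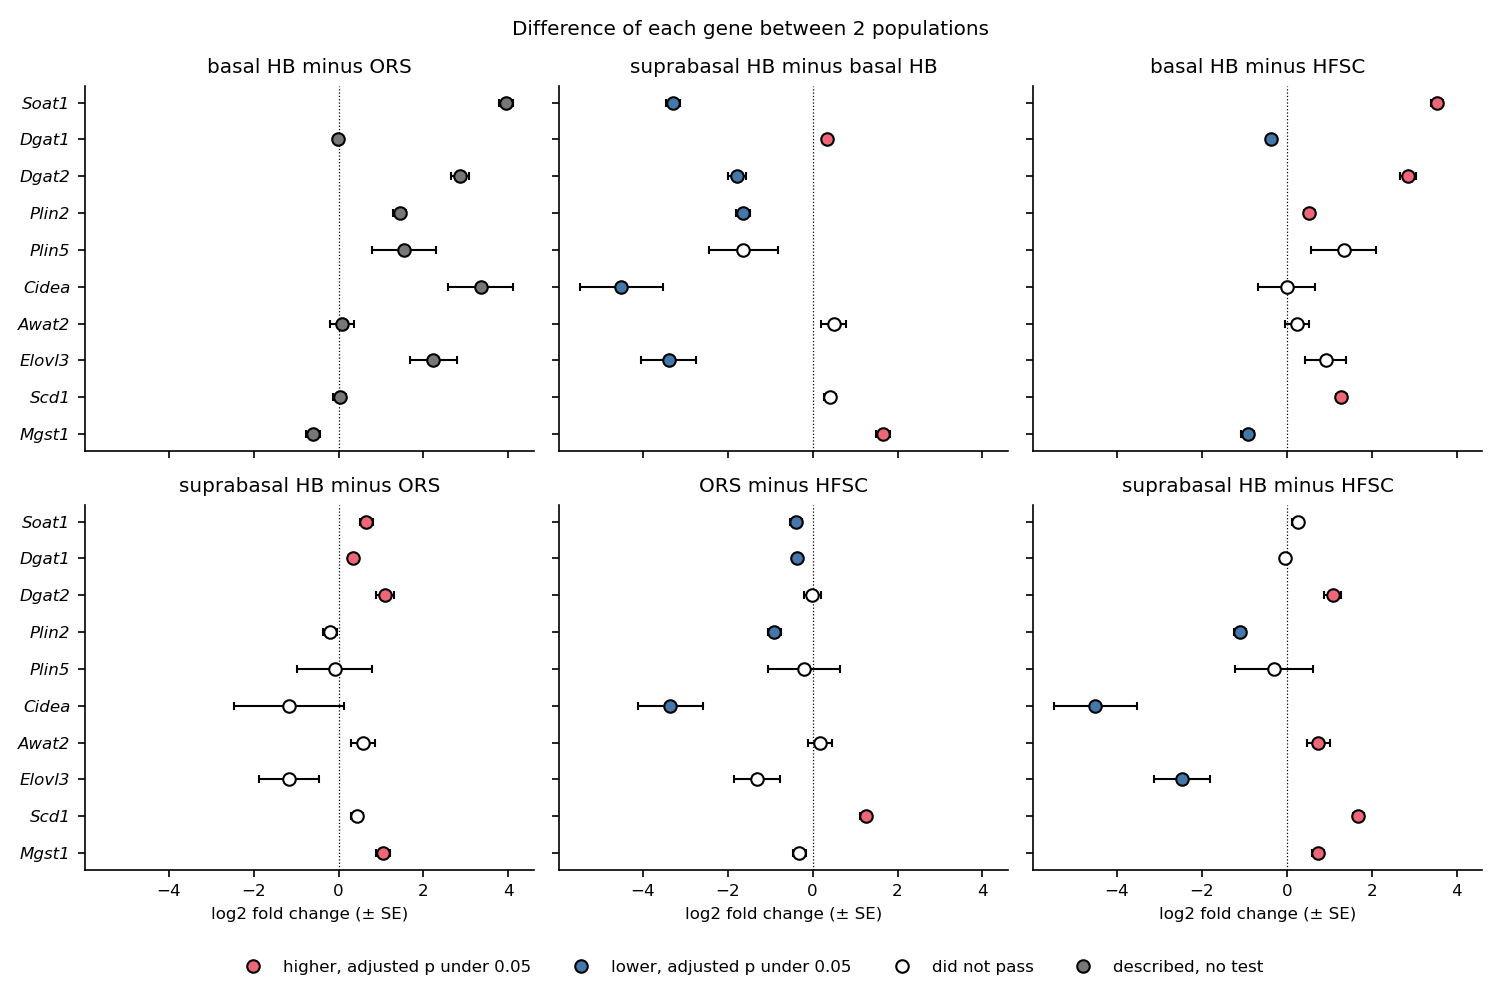
Log2 fold change with its SE from the edgeR fit for each of the 10 genes in the 6 comparisons, first population minus second; red and blue passed adjusted p under 0.05, white did not, and grey is described without a test. Soat1 moves from 3.94 in basal HB against ORS to -3.29 in suprabasal against basal HB; fitted values of Plin5, Elovl3 and Cidea rest on few counts and depend on the prior count.

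Lists of further genes of these pathways, 103 genes of which 98 were tested and none among the 10, were set beside them. The lists were drawn from knowledge of lipid metabolism, but with earlier results of these data known. Their counts are therefore a description and may not be independent of those results. In basal HB against ORS 36 were higher, 17 lower and 45 did not pass, where 15.8% and 14.7% of all genes were higher and lower (30.5% in all). Their median log2 change was 0.27, beside -0.0394 over all genes. Of 9 lipolysis genes 6 were higher and none lower by edgeR, where 3 were lower at an unadjusted p under 0.05 and 1 by the DESeq2 Wald test. Pnpla3, a lipase of droplets, was 9.94-fold higher (adjusted p = 0.00013). Mgll, which splits the last fatty acid from glycerol, was 7.60-fold higher (adjusted p = 0.0011). Not all genes of this list encode lipases. G0s2, which restrains lipolysis, was among the 6 (5.08-fold higher, adjusted p = 0.0061). Of 11 genes of droplet coat and growth 6 were higher and none lower by edgeR or DESeq2 (1 at an unadjusted p under 0.05). Cidec and Fitm1 are among the 6 but passed the filter on low counts through basal HB alone, and Cideb through HFSC alone. Of the other 8 droplet genes 4 were higher and none lower, and over all lists, leaving out these 3 genes and Mogat1, which also passed through HFSC alone, 34 of 94 were higher and 17 lower. Cidec, with levels given above, had an adjusted p of 0.0018. Fitm1, which helps droplets bud, had 1.18 and 1.26 TPM in basal HB and 0.06 and 0.11 in ORS (adjusted p = 0.0029).

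Of 14 genes of fatty acid uptake and activation, 8 were higher and 5 lower in basal HB than in ORS. Fabp4, a fatty acid carrier of fat cells and macrophages, was 10.8-fold higher (adjusted p = 0.00051), the transporter Slc27a4 3.52-fold (adjusted p = 4.2e-05) and the ligase Acsl1 3.36-fold (adjusted p = 7.7e-05). Of 14 regulators 5 were higher and 3 lower. Pparg, a receptor that drives lipid genes, was 4.63-fold higher (adjusted p = 0.0025), and Cebpb, a transcription factor of fat and keratinocyte differentiation, 2.47-fold (adjusted p = 0.00086).

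The steps before Dgat2 did not move as a group between these populations. Of 13 genes of triglyceride synthesis 2 were higher and 2 lower, with a median of -0.086. Gpam, the mitochondrial enzyme of the first step, was 2.37-fold lower (adjusted p = 0.00034), and Lpin1, a phosphatidate phosphatase, 2.52-fold higher (adjusted p = 0.004). Of 18 genes of fatty acid synthesis, desaturation and elongation 6 were higher and 5 lower, among the latter Fads2 (2.54-fold, adjusted p = 0.0024). Of 14 glutathione transferases and related genes, not all of them transferases, 3 were higher and 2 lower. None of 5 sterol and wax ester genes passed, by edgeR, by DESeq2 or at an unadjusted p under 0.05.

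From basal to suprabasal HB 21 of the 98 rose, 22 fell and 55 did not pass, with a median of -0.0477 beside 0 over all genes. Of all tested genes 13.1% rose and 14.8% fell. Among the 11 droplet genes 3 fell and 3 rose, and 1 fell and 3 rose without Cidec, Fitm1 and Cideb. Plin4 fell 38.9-fold, and Fitm1 fell to 0 and 0.04 TPM (adjusted p = 0.0021). Pnpla3 fell 3.05-fold (adjusted p = 0.0025). Mgll did not follow them. It had 4.83 to 5.62 TPM in HFSC, 3.14 and 9.29 TPM in ORS, 43.2 and 55.0 TPM in basal HB, and 189 and 246 TPM in suprabasal HB, and rose a further 5.34-fold (adjusted p = 0.0029). Nceh1, which hydrolyses cholesterol esters, was the 1 gene of 5 in the sterol and wax ester list that passed, rising 2.75-fold (adjusted p = 0.0024) to 11.6 and 13.9 TPM. Of 13 genes of triglyceride synthesis 4 rose and 1 fell, with Agpat3 up by a log2 change of 1 (adjusted p = 0.00029). Of 14 genes of uptake and activation 2 rose and 6 fell, among them Slc27a4 (2.25-fold, adjusted p = 0.00011). Ppargc1a, a coactivator of mitochondrial genes, rose 4.97-fold (adjusted p = 0.00064).

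**Figure D4:**
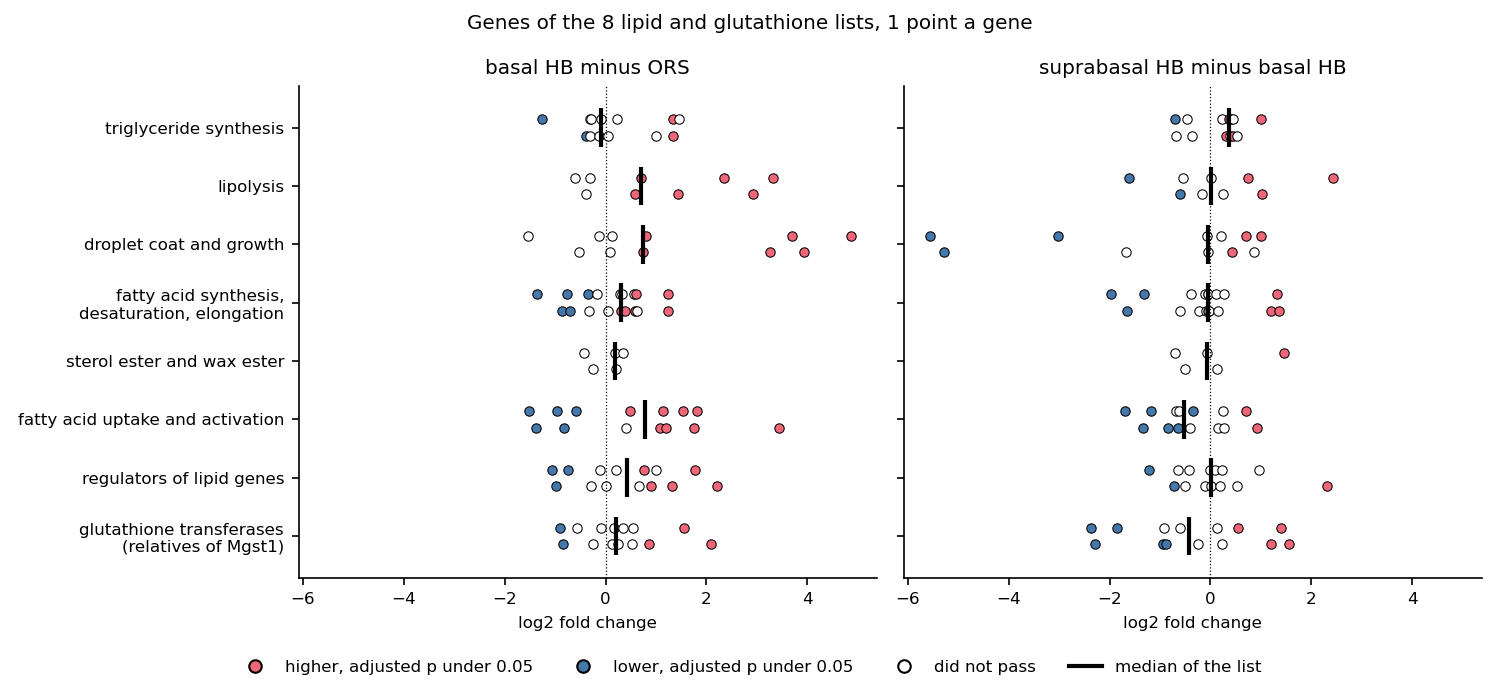
Log2 fold change of each tested gene of the 8 lists in basal HB against ORS (left) and suprabasal against basal HB (right); each point is a gene, filled where it passed, and the bar is the median of the list. In the left panel 6 of 9 lipolysis and 6 of 11 droplet genes are higher and none lower, and 2 of the latter (Cidec and Fitm1) passed the filter on low counts through basal HB alone.

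In the other comparisons the 98 genes split as follows. Against HFSC, basal HB had 35 higher and 37 lower, with Plin4 32.5-fold and Pnpla3 14.3-fold higher and Insig2, a brake on sterol synthesis, 7.37-fold lower (adjusted p of 2.9e-05, 1.1e-05 and 2.2e-06). Triglyceride synthesis had 9 of 13 genes lower there, among them Gpam (2.76-fold, adjusted p = 4.4e-05), and 3 higher, but 4 lower and 4 higher on TPM. Suprabasal HB had 36 higher and 29 lower against HFSC, with Mgll 37.1-fold higher (adjusted p = 1e-05), and 37 higher and 18 lower against ORS, with Mgll 40.6-fold (adjusted p = 6.1e-05) and Nceh1 3.15-fold higher (adjusted p = 0.00091). ORS against HFSC had 12 higher and 39 lower, including 10 of 14 glutathione transferases and related genes, such as Gstm5 (4.06-fold, adjusted p = 6.1e-05). On TPM with a pseudocount of 1, 7 of these 14 were lower.

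These splits depend on the scale. With the deposited TPM and a pseudocount of 1 the median log2 change of all genes moved from 0 to -0.158 in suprabasal against basal HB, and the share of called genes that were higher from 46.8% to 20.5%. In basal HB against HFSC the median moved from -0.00404 to 0.214 and that share from 46.7% to 72.5% (57.2% with upper-quartile scaling). In suprabasal HB against ORS the shares were 48.6% and 31.3% with a median of -0.126 on TPM, and in ORS against HFSC 43.2% and 68.5% with a median of 0.127. The 98 genes had 14 higher and 33 lower in suprabasal against basal HB on TPM, 43 and 24 in basal HB against HFSC, 28 and 20 in suprabasal HB against ORS, and 19 and 23 in ORS against HFSC. On TPM with a pseudocount of 1, 10 of the 48 medians of single lists turned sign, and 3 did with DESeq2 size factors. In suprabasal against basal HB these were triglyceride synthesis (0.361 to -0.0118), lipolysis (0.00832 to -0.266) and regulators (0.00155 to -0.271). In suprabasal HB against ORS they were triglyceride synthesis (0.187 to -0.0652), regulators (0.331 to -0.0415) and glutathione transferases with related genes (0.119 to -0.111). In ORS against HFSC they were the droplet list (-0.375 to 0.0385), the sterol and wax ester list (-0.182 to 0.132) and regulators (-0.168 to 0.0502). In basal HB against HFSC the sterol and wax ester list (-0.0284 to 0.212) and the median over all lists (-0.0491 to 0.297) turned. No median of a list turned sign in basal HB against ORS under the 5 settings run. In suprabasal against basal HB the uptake list had 8 lower and none of its 2 rises on TPM, and the triglyceride list 1 and 2. In basal HB against ORS the TPM split of the 98 was 36 and 12.

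Markers of some other cell types moved with these genes. The summed level of 8 sebocyte markers was 17.97, 17.32 and 17.77 TPM in HFSC, 36.8 and 14.04 TPM in ORS, 117 and 139 TPM in basal HB, and 41.3 and 45.2 TPM in suprabasal HB. In basal HB most of that sum was Prdm1 (101 and 88.9 TPM), a repressor also active in other epithelial cells. Mc5r, a receptor of sebocytes, had 5.17 and 4.80 TPM there and at most 0.77 elsewhere, while Awat1 was at or under 0.13 in every library. In basal HB against ORS 5 of 7 tested sebocyte markers were higher and none lower, where 15.8% and 14.7% of all genes were. Of 6 tested immune cell markers 1 was higher there and none lower. Their list summed to 197 and 195 TPM in basal HB and 70.2 to 143 TPM elsewhere. Of 7 endothelial and blood markers none was higher and 1 was lower.

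The sum of 9 adipocyte markers was 74.1 to 89.0 TPM in HFSC, 48.5 and 110 TPM in ORS, 749 and 888 TPM in basal HB, and 168 and 266 TPM in suprabasal HB, and 8 of 9 were higher in basal HB than in ORS (6 of 7 without Cidec and Lep, which passed the filter on low counts through basal HB alone). Of all tested genes 15.8% were higher in basal HB than in ORS. Fabp4 alone had 700 and 844 TPM in basal HB. The defining markers were far lower in level but also highest there. Adipoq had 2.2 and 1.87 TPM in basal HB and 0.08 to 0.88 elsewhere, Cfd had 10.32 and 9.54 TPM and 0.12 to 0.70 elsewhere, and Lep had 0.20 and 0.26 TPM and 0 to 0.07 elsewhere. Plin1, Cidec, Lipe and Fabp4 are in both the adipocyte and the pathway lists, and Pparg in both the sebocyte and the regulator lists. The sum of 9 melanocyte markers was 52.7 to 261 TPM in HFSC and ORS, 773 and 1267 TPM in basal HB, and 10980 and 12170 TPM in suprabasal HB, where Mgst1 and Mgll were also highest. ORS replicate 1 had more sebocyte, adipocyte and melanocyte signal than ORS replicate 2. Without ORS replicate 1 the log2 difference of Soat1 in basal HB against ORS was 4.15, and without ORS replicate 2 it was 3.76.

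The sum of 12 dermal fibroblast and papilla markers overlapped between populations, at 1130 to 1775 TPM in HFSC, 1134 and 722 TPM in ORS, 1589 and 1322 TPM in basal HB and 2198 and 1030 TPM in suprabasal HB, but 7 of the 12 were higher and 1 lower in basal HB than in ORS. Over all tested genes these shares were 15.8% and 14.7%. Corin, Hhip and Rspo3, genes of the dermal papilla, the mesenchyme inside the bulb, were highest in basal HB as Soat1 was. Corin had 37.1 and 30.5 TPM in basal HB and 0.97 to 6.10 elsewhere, Hhip 29.9 and 21.1 TPM and 0.46 to 3.22 elsewhere, and Rspo3 11.3 and 5.70 TPM and 0.24 to 2.14 elsewhere. These 3 were chosen after their values were seen. By mean CPM Pdgfra was also highest in basal HB. Col1a1, Col1a2 and Dcn were highest in suprabasal HB, and Col3a1, Lum, Vcan, Sparc and Dpt in HFSC. In basal HB against HFSC 3 of the 12 were higher and 3 lower, where 22.8% and 26.1% of all genes were. From basal to suprabasal HB 7 of 8 markers of the inner root sheath and hair shaft rose and 1 fell, where 13.1% and 14.8% of all genes did. The part of all these cells in the results was not tested.

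**Figure D5:**
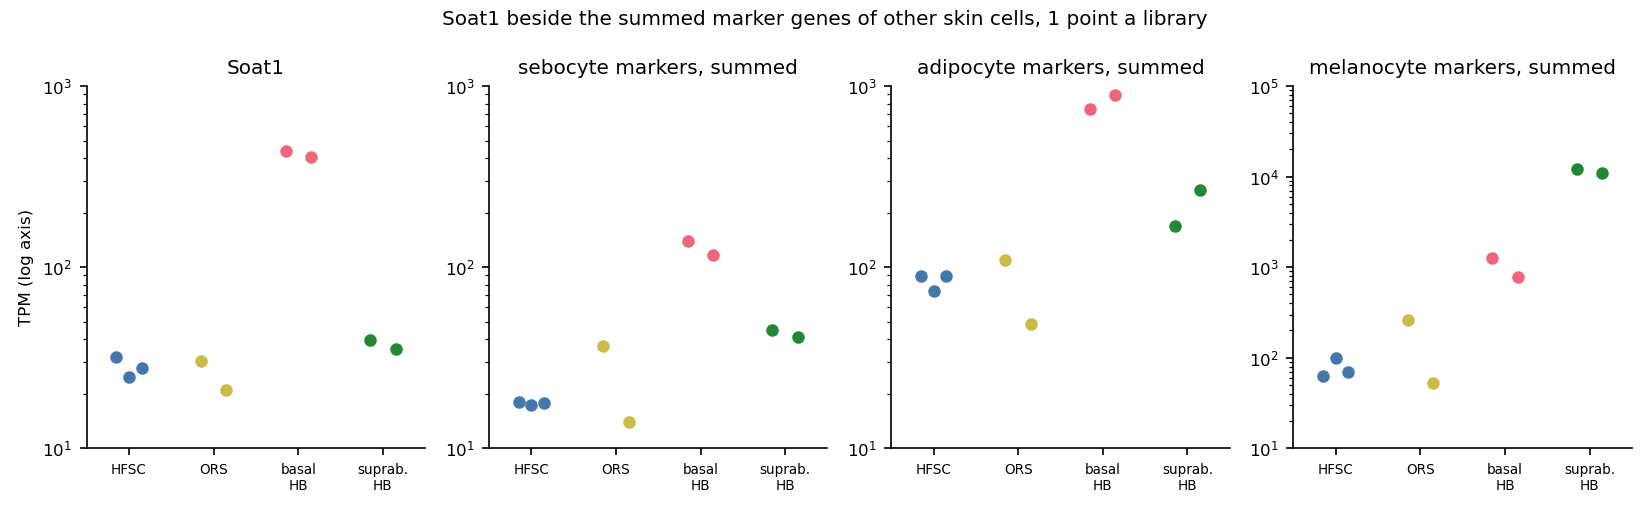
Soat1 and the summed levels of sebocyte, adipocyte and melanocyte marker genes in each library, in TPM on log axes that differ between panels; each point is a library. Soat1 and the first 2 sums are highest in both basal HB libraries, while the melanocyte sum is highest in suprabasal HB (10980 and 12170 TPM).

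Across the 9 libraries, the genes whose log2 CPM followed Soat1 most closely, among 10386 genes with a mean of at least 10 CPM, were Ivl (Pearson r of 0.996), 4930523C07Rik (0.984), Sct (0.984), Cdkn1c (0.981) and Alox8 (0.979). For Dgat2 they were Padi1 (0.996), Ccdc68, Tmem38b, B3gnt5 and Krt75 (0.986), a companion layer keratin. For Mgst1 they were Txn2 (0.983), Rabggtb, Got1, Tmem147 and Bax (0.974). Soat1 and Dgat2 had an r of 0.952 with each other, Soat1 and Plin2 0.693, and Soat1 and Mgst1 -0.638. The 9 points fall into 4 populations, with library depth lowest in HFSC, so these values describe which population was high and carry no test.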

How the data were processed

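RNA was measured by sequencing in 9 libraries of 4 sorted populations, grouped by the sample titles. Per the submitters' processing notes Bowtie2 2.2.9 and RSEM 1.2.30 were used with mm10; parameters, annotation release and counting strand are not given in the sources used here. The deposited tables hold, for each gene and library, RSEM expected counts, which the authors did not scale for depth. They also hold TPM, which the authors scaled per effective length and to the same sum in each library, and the deposited effective length in bases, another column used. The 9 FPKM columns and 9 per-sample columns of a deposited series-wide table were not used. The 92 spike-in (ERCC) rows were at 0 in every library and were left out.

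Expected counts were rounded and fitted with edgeR 4.0.16 (R 4.3.3). filterByExpr kept 20491 of 46517 genes, and libraries were scaled by TMM (factors 0.8996 to 1.127). The 9 libraries entered 1 quasi-likelihood fit of 4 means with 5 residual degrees of freedom. F-tests were 2-sided, with Benjamini-Hochberg adjustment over all tested genes and a threshold of 0.05. The standard error of a log2 fold change is its size over the root of F. Fold changes of the fit are on a log2 scale of counts. Total expected counts were 25098237 to 88596741, and CPM are TMM-scaled counts scaled to library size. The procedure was also run on simulated counts in which a small share of genes was raised in basal HB alone. Such counts cannot test the scaling between populations that differ in many genes.

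The 10 genes and all lists were chosen with earlier results of these data known. From the lists the text names, in each comparison, at most the 3 called genes of largest log2 fold change per list, and relatives of the 10 genes for their level. Alternatives were DESeq2 1.42.0, its size factors, upper-quartile scaling, 2 other filters, a fit of only the 2 populations, limma 3.58.1 on log2(TPM + 1) and log2(TPM + 0.1), a replicate block, and leaving out each library. Positions are from GENCODE M21 on mm10 and promoter windows from RefSeq.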

Additional observations from a re-analysis of the deposited data

How the results depend on the processing

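Of 877 values of the 10 genes in the 5 tested comparisons under the alternatives, 809 kept their side of the threshold, 59 lost a call and 9 gained one. In 40 the sign turned, 7 of them on TPM, and none of these 40 passed the test before or after. Of 177 values in basal HB against ORS, 170 stayed within the spread between replicates, and 17 values of Dgat1, Awat2 and Scd1, all near 0, turned sign. The number of the 10 genes at least 2-fold higher in basal HB than in ORS, 6 by edgeR, was 3 with the stricter filter, which removes low genes, and 3 on TPM with a pseudocount of 1, which compresses them. The 4 calls in suprabasal HB against ORS became 2 on TPM with a pseudocount of 0.1. The 5 calls in ORS against HFSC became 3 with no filter on low counts, 2 with only the 2 populations in the fit, and 3 on TPM with either pseudocount; the cause was not tested. Leaving out 1 library gave 3 to 5 calls there, 6 to 6 genes in basal HB against ORS, 5 to 7 in suprabasal against basal HB, 4 to 6 in basal HB against HFSC, 3 to 4 in suprabasal HB against ORS and 6 to 7 in suprabasal HB against HFSC. The same ranges for list genes were 40 to 49, 37 to 54, 32 to 46, 54 to 73, 46 to 58 and 57 to 67.

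Whether libraries with the same replicate number were paired is not stated. Deviations of same-numbered libraries from their population means correlated by -0.105 to 0.121. With 2 libraries in a population their deviations mirror each other, so these values cannot settle whether libraries were paired. With the replicate number as a block, counts of the 10 genes were 6, 7, 6, 4, 4 and 6, in the order basal HB against ORS, suprabasal against basal HB, basal HB against HFSC, suprabasal HB against ORS, ORS against HFSC and suprabasal HB against HFSC. Those of list genes were 53, 45, 69, 56, 45 and 62. With this block Soat1 in ORS against HFSC (adjusted p = 0.0699) and Awat2 in suprabasal HB against HFSC (0.128) lost their calls.

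Depth limits Plin5, Cidea and Elovl3, whose libraries hold 0 to 57 expected counts.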
